A study of Mus musculus with 6 samples.

Results

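Metallothioneins are small, cysteine-rich proteins that bind zinc and copper, buffer the free zinc of a cell and bind toxic metals such as cadmium. Their genes are switched on by metals through the zinc-finger factor MTF-1, which senses zinc and binds short metal response elements in promoters, and glucocorticoids, interleukin-6 and oxidative stress also raise them. In blood-forming cells Mt1 and Mt2 are the forms in common use, whereas Mt3 is best known from the brain and Mt4 from stratified epithelium.

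The genes described here are Mt1, Mt2, Mt3, the MTF-1 gene Mtf1 and Slc30a1, which encodes the zinc exporter ZnT1 of the plasma membrane. Each is represented by the probe set that is annotated to its symbol alone and has the highest mean level. By this rule 4 of the 5 listed genes are measured, out of 22180 named genes on the array. Slc30a1 has no value, because its 2 probe sets are both annotated to a second gene, 1700034H15Rik, as well. The set was chosen by the level of Mt2, which was far lower in 1 leukemia, so the levels of Mt2 are given as a description with no test.

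The samples are c-Kit+ leukemic cells sorted from mouse spleen at the end stage of disease, 3 from Chd7f/f, Mx1-Cre, Cbfb+/56M mice and 3 from Mx1-Cre, Cbfb+/56M mice. The groups are called Chd7f/f and control below. All mice, the controls included, carry Mx1-Cre, a recombinase switched on by the interferon response to pIpC in blood and other tissues, and 1 conditional Cbfb+/56M allele, which yields the Cbfb-MYH11 fusion of inv(16) acute myeloid leukemia. All received pIpC and the mutagen ENU, whose further mutations can differ between leukemias, and the age and sex of the mice are not given in the labels. In the Chd7f/f group both alleles of Chd7, a chromatin remodeller gene, are floxed as well. RNA of each sample was hybridised to 1 Affymetrix whole-transcript array. Levels are log2 values, so a difference of 1 is a doubling, and all differences between genotypes are Chd7f/f minus control.

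Kit, the gene of the sort, was between 11.68 and 12.48 on the 6 arrays. Chd7 was at 5.48, 6.50 and 5.91 in Chd7f/f leukemias and at 6.17, 7.54 and 5.32 in control leukemias, and these ranges overlap. The probe set covers the whole gene and does not check the deletion. In a principal component analysis control replicate 1 stood apart on the first component, which held 33.7% of the variance, at a score of -55.0. Chd7f/f replicates 1 and 2 lay at opposite ends of the second component (30.2%), at 45.2 and -33.2. Control replicate 2 was 4.48 below the mean of the other 5 arrays for the Y-linked gene Eif2s3y.

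Mt1, Mt2, Mt3 and Mt4 lie together on mouse chromosome 8 within 43124 bases (GRCm38.p6, 94137204 to 94180327), all on the plus strand. Mt2 (94172618 to 94173567) ends 5.32 kb before Mt1 (94178883 to 94180327), and Mt3 (94152607 to 94154148) ends 18.5 kb before Mt2. Mtf1 lies on chromosome 4 (124802549 to 124849800). The promoter windows of Mt1, Mt2 and Mt3 are shown because these genes are neighbours. Mt1 and Mt2 had a similar pattern across the leukemias, while Mt3 was low on all arrays. Each is the 300 bases from 250 before to 50 after a start site in RefSeq, 5′ to 3′ on the plus strand. Capitals mark matches to the core of the metal response element, searched as TGCACNC and TGCGCNC on both strands. No 2 matches overlap in these windows.
Mt1 promoter, chr8:94178839-94179138: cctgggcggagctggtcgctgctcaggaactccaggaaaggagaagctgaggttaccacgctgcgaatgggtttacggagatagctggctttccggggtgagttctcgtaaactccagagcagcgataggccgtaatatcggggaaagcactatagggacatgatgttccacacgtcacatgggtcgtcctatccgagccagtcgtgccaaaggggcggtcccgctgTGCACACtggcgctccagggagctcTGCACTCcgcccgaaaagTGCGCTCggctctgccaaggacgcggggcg
Mt2 promoter, chr8:94172368-94172667: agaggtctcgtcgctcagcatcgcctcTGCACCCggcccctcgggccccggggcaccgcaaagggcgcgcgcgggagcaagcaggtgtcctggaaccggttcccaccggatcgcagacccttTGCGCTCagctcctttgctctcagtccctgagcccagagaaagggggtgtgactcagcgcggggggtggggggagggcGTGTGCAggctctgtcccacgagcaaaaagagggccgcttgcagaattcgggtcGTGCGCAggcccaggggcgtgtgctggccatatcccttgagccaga
Mt3 promoter, chr8:94152357-94152656: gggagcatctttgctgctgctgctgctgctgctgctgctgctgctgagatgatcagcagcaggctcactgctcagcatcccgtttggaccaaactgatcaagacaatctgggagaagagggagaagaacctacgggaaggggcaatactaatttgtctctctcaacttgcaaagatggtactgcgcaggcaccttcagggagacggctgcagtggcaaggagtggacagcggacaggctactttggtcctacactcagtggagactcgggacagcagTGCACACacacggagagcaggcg

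The Mt2 window held 4 matches and the Mt1 window 3, while the Mt3 window held 1. Among 32851 RefSeq promoter windows of the same length 25.7% held at least 1 match, 1.97% at least 3 and 0.517% at least 4. In Mt1 the matches start 23 bases before the start site of the window and at bases 3 and 21 after it. The start site of this window, at 94179089, lies inside the Mt1 gene record, which begins at 94178883. The positions and the count of 3 hold for this window alone, and sequence around other starts of Mt1 was not searched. In Mt2 they start 223, 128 and 50 bases before the start site and at base 5 after it. Those at 50 before and at base 5 are on the minus strand. The Slc30a1 window held 2 matches, that of Mt4 1 and that of Mtf1 0. A match says that these letters are present, and nothing on binding in these cells.

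Mt2 was far lower in 1 of the 6 leukemias, the Chd7f/f replicate 2 sample. It was at 11.51, 7.79 and 11.59 in Chd7f/f leukemias and at 11.82, 12.07 and 12.09 in control leukemias. The low array lay 4.02 below the mean of the other 5, which is 16.2-fold lower, while those 5 ranged over only 0.57. Mt2 averaged 10.30 ± 2.17 in the Chd7f/f group against 11.99 ± 0.15 in the control group (SD over 3 arrays each), and the difference was -1.69. The 3 Chd7f/f values lay below the 3 control values, as they did for 4.37% of the 15526 tested genes, and since the levels of Mt2 chose the set nothing is read from this. Without Chd7f/f replicate 2 the difference was -0.44. These are bulk samples, in which fewer cells with a transcript and less of it in each cell cannot be told apart.

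Mt1 followed Mt2 on the same array. It was at 11.72, 8.72 and 11.57 in Chd7f/f leukemias and at 11.64, 11.97 and 11.87 in control leukemias. The Chd7f/f replicate 2 sample lay 3.03 below the mean of the other 5 arrays, 8.17-fold lower, and those 5 spanned 0.40. Being the lowest of 6 on this array was common, with 17.8% of tested genes. A value at least 2 below the mean of the other arrays was not, with 80 genes or 0.515%. In the order of all 15526 tested genes by this quantity, lowest first, Mt1 was at place 22. Mt2 was at place 4, and since its low level here chose the set nothing is read from its place. Against the other 2 Chd7f/f leukemias alone the low sample was 3.76 lower for Mt2 and 2.92 lower for Mt1, and against the control mean it was 4.20 and 3.10 lower.

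Between genotypes Mt1 did not pass the test. It averaged 10.67 ± 1.69 in the Chd7f/f group against 11.82 ± 0.17 in the control group (SD over 3 arrays each), and the difference was -1.16 with an SE of 0.79 (limma, unadjusted p = 0.193, adjusted p = 0.9998). Chd7f/f replicate 1, at 11.72, lay above control replicate 1, at 11.64, so the groups overlap. No gene passed the adjusted threshold (0 of 15526, 0.0%), and 286 genes, 1.84%, had an unadjusted limma p under 0.05. Without Chd7f/f replicate 2 the Mt1 difference was -0.18 (limma, unadjusted p = 0.301, adjusted p = 0.996). The large spread of the Chd7f/f group thus comes from 1 leukemia in both genes, and the other 2 Chd7f/f samples lie within 0.40 (Mt1) and 0.57 (Mt2) of every control sample.

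**Figure D1:**
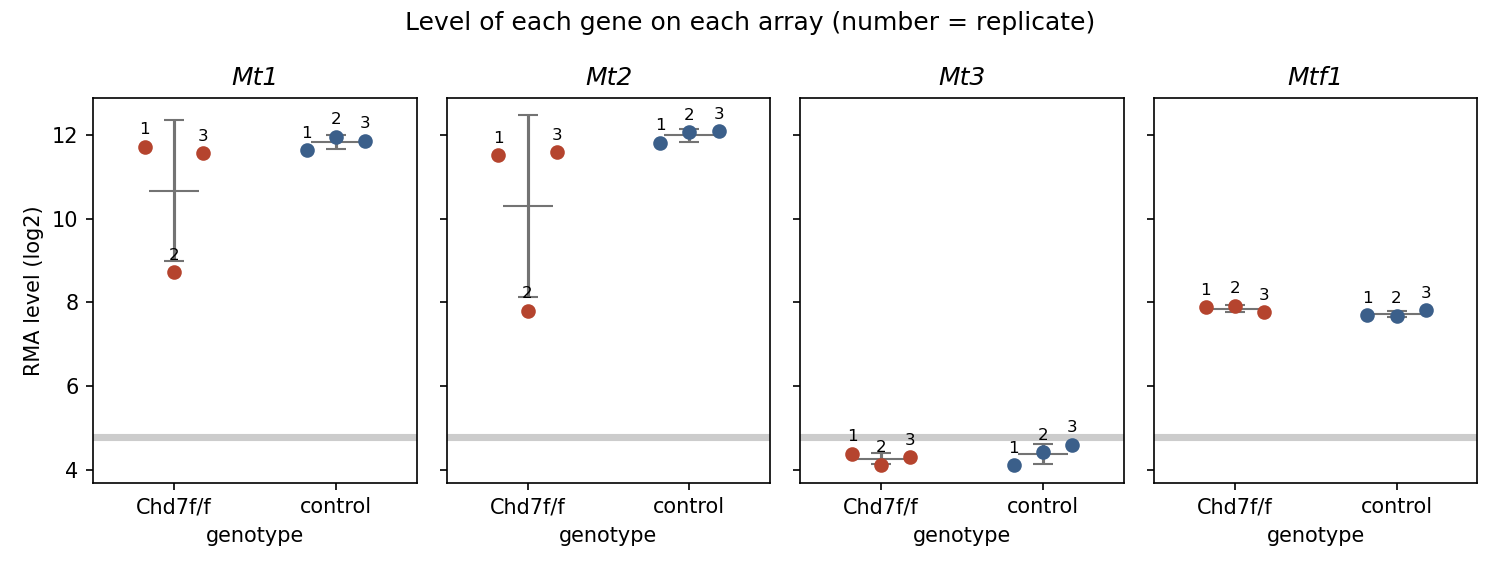
RMA level (log2) of Mt1, Mt2, Mt3 and Mtf1 on each array, Chd7f/f in red and control in blue, with the replicate number above each point. Grey bars are the mean ± SD of 3 arrays and the grey band is the range of the array medians over all probe sets, 4.72 to 4.84. Replicate 2 of Chd7f/f is low for Mt1 (8.72) and Mt2 (7.79) and not for Mtf1, and Mt3 lies under the band on all arrays.

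Mt3, the brain form, stayed low in all leukemias. It was at 4.38, 4.12 and 4.29 in Chd7f/f leukemias and at 4.11, 4.41 and 4.60 in control leukemias. These values lie under the median level of every array, 4.72 to 4.84 over all probe sets, and may be near background. The groups overlap, and the lowest array was control replicate 1, not Chd7f/f replicate 2. The difference between genotypes was -0.11 with an SE of 0.16 (limma, unadjusted p = 0.531, adjusted p = 0.9998). Mt4, which did not reach the level set for testing, was between 3.37 and 3.65 in Chd7f/f and between 3.45 and 3.67 in control leukemias.

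Mtf1, the gene of the metal-sensing factor itself, was close to even. It was at 7.88, 7.92 and 7.76 in Chd7f/f leukemias and at 7.69, 7.68 and 7.81 in control leukemias. Chd7f/f replicate 2, the array with low Mt1 and Mt2, had the highest Mtf1 level of the 6, 0.16 above the mean of the others, where 17.6% of tested genes were highest. It averaged 7.85 ± 0.084 in the Chd7f/f group against 7.73 ± 0.070 in the control group (SD over 3 arrays each), and the difference was 0.13 with an SE of 0.11 (limma, unadjusted p = 0.296, adjusted p = 0.9998). The groups overlap, and Mtf1 did not pass the test.

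**Figure D2:**
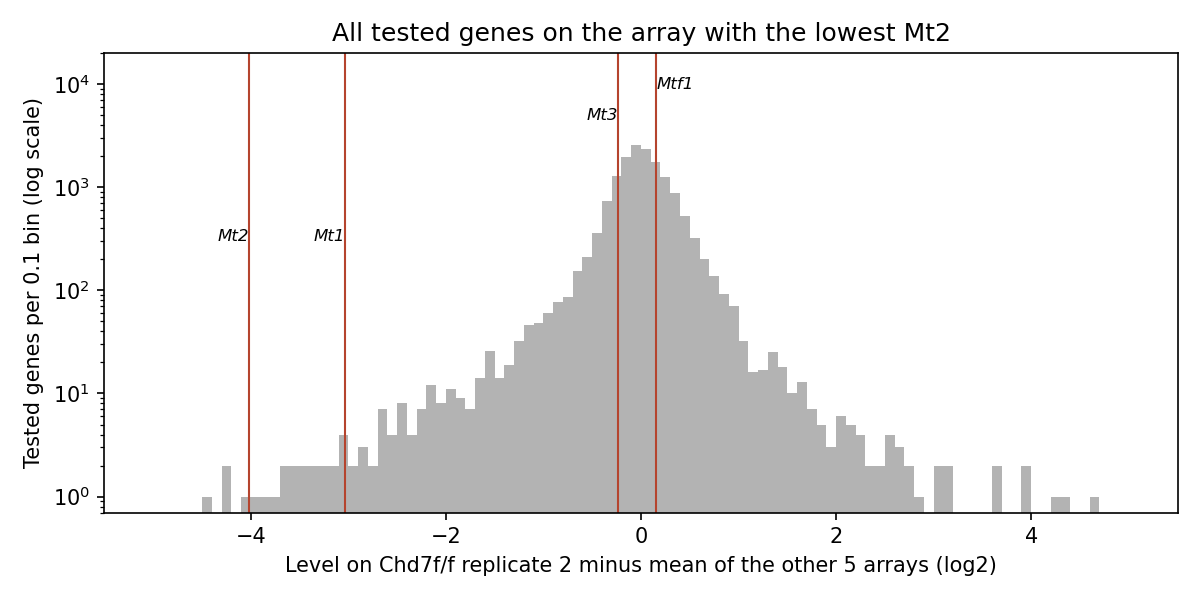
Histogram of all 15526 tested genes by their level on Chd7f/f replicate 2 minus the mean of the other 5 arrays (log2), with counts on a log scale. Red lines mark Mt2 (-4.02) and Mt1 (-3.03) in the sparse lower tail, and Mt3 (-0.24) and Mtf1 (0.16) in the main body.

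Zinc exporter genes did not share the low level of Mt1 and Mt2 on Chd7f/f replicate 2. Of the 10 zinc exporter genes of the Slc30 family 7 were tested, and 0 of the 7 were lowest on this array. Their median lay 0.23 above the mean of the other 5 arrays, beside -0.0004 over all tested genes. Those nearest to a low value were Slc30a7, a Golgi zinc transporter, at 0.015 above, and Slc30a3, a transporter of synaptic vesicles, at 0.018 above, and both change sign with 1 of the other arrays left out (to -0.073 for Slc30a7 without Chd7f/f replicate 3 and -0.053 for Slc30a3 without Chd7f/f replicate 1). Those furthest above were Slc30a2, a vesicular zinc transporter, by 0.51 and Slc30a6, of the Golgi, by 0.39. Slc30a2 was at 9.0, 9.07 and 9.28 in Chd7f/f and at 8.86, 8.56 and 7.10 in control leukemias. Control replicate 3 sets most of its difference on Chd7f/f replicate 2, which was 0.15 without that array. Its 3 Chd7f/f values lie above the 3 control values, as for 2.45% of tested genes, and it did not pass the test (limma, difference 0.94, SE 0.45, adjusted p = 0.9998). Between genotypes 0 of the 7 exporters passed the test, and the median difference was 0.050. Leaving out Chd7f/f replicate 1 gave 0.14, and leaving out Chd7f/f replicate 2 gave -0.024.

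Of the 14 zinc importer genes of the Slc39 family 13 were tested. On Chd7f/f replicate 2, 4 of the 13 (Slc39a3, Slc39a5, Slc39a11 and Slc39a13) were the lowest of 6, which is 30.8% beside 17.8% of all tested genes, and the median difference from the other 5 arrays was -0.094. Slc39a3, Slc39a5 and Slc39a13 were lowest by little, at 6.82, 5.30 and 7.41 against 6.86, 5.34 and 7.42 on the next lowest array. Slc39a2, a plasma membrane importer, lay 0.32 and Slc39a11 0.25 below the mean of the other arrays. The Slc39a2 value rests on control replicate 1, and was 0.095 below without it. Slc39a4, the intestinal importer that is mutated in human acrodermatitis enteropathica, lay 0.84 above and Slc39a8, which also carries manganese and cadmium, 0.56 above. Slc39a4 was 0.55 above without Chd7f/f replicate 1. Slc39a8 was even on 5 arrays, between 9.71 and 10.09, and at 7.73 in control replicate 1, without which it was 0.12 above. Of these importers 0 passed the test in either direction between genotypes, and the median difference was -0.041, beside -0.027 over all tested genes. Leaving out Chd7f/f replicate 3 gave -0.12, and leaving out Chd7f/f replicate 1 gave 0.039.

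**Figure D3:**
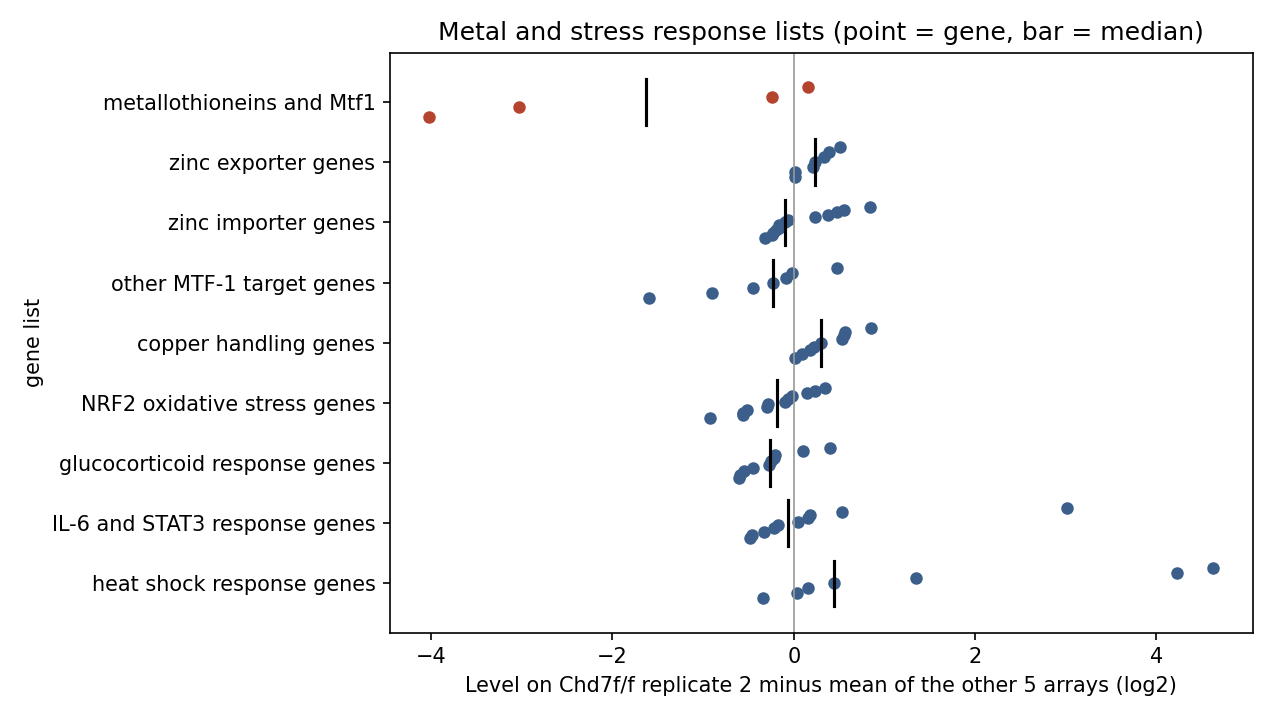
Level on Chd7f/f replicate 2 minus the mean of the other 5 arrays (log2) for each tested gene of the metal and stress response lists, a point per gene and a black bar at the list median. Mt1 and Mt2 (red, at -3.03 and -4.02) lie below every gene of the 8 other lists, and Hspa1a, Hspa1b and Il6st lie furthest above.

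Most other genes reported as MTF-1 targets were also lower on Chd7f/f replicate 2, by less than Mt1 and Mt2. Of 9 listed genes 7 were tested. Of these 6 lay below the mean of the other 5 arrays, beside 50.1% of all tested genes, with a list median of -0.23. The mean level of the list was 8.09, 7.91 and 8.29 in Chd7f/f and 8.86, 8.20 and 8.14 in control leukemias, so Chd7f/f replicate 2 was the lowest of 6. This lowest mean rests largely on Ndrg1, and Csrp1 (9.56) and Slc39a10 (7.30) were lowest on Chd7f/f replicate 1 instead. Ndrg1 and the placental growth factor gene Pgf, 2 of the 7, had their own lowest level there, which is 28.6% beside 17.8% of all tested genes. Pgf was lowest by little and lay under the median of every array, where levels may be background. Ndrg1, a stress-responsive gene, was at 8.75, 7.09 and 8.41 in Chd7f/f and at 9.76, 8.15 and 8.35 in control leukemias, so the same array was 1.59 below the mean of the others. Slc40a1, which encodes the iron exporter ferroportin, was 0.90 below that mean. Its high value of 9.80 in control replicate 1 sets most of this, and without that array it was 0.31 below. Selenow, a selenoprotein gene, was 0.45 below, Pgf 0.23 and Csrp1 0.085. Gclc, the catalytic subunit of glutathione synthesis, was nearly level with the other arrays (-0.020), and 0.015 above without control replicate 1. Slc39a10, a zinc importer that MTF-1 is known to repress in mouse cells, was the 1 gene above them, by 0.48. Its level was 8.34 there and higher, 8.45, in control replicate 1, where Mt1 and Mt2 were not low. The part of MTF-1 in these levels was not tested. Between genotypes the 7 genes had a median difference of -0.31, with 0 called. This value moves with single arrays, and was -0.11 when control replicate 1 was left out, -0.13 when Chd7f/f replicate 1 was and -0.21 when Chd7f/f replicate 2 was. With array weights it was -0.077.

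Copper handling genes were somewhat higher on the array with low Mt1 and Mt2. All 9 tested genes lay above the mean of the other arrays, beside 49.9% of all tested genes, with a median of 0.30. There 0 of them were lowest and 4 (Atp7a, Atox1, Cox17 and Sco1) were highest, where 17.6% of all tested genes were highest. Atp7a, the copper pump mutated in human Menkes disease, was at 6.29, 7.12 and 6.51 in Chd7f/f and at 5.98, 6.39 and 6.18 in control leukemias, 0.85 higher on Chd7f/f replicate 2 than on the others. The copper transporter gene Slc31a2 was 0.57 higher there, and 0.38 without control replicate 3. Sod1, the copper and zinc superoxide dismutase, was 0.013 and Atp7b, the pump mutated in human Wilson disease, 0.096 above the mean of the others. Without control replicate 1 Sod1 was 0.055 below, and without control replicate 2 Atp7b was 0.014 above. Between genotypes 0 of the 9 passed the test, and the median difference was 0.13. Leaving out Chd7f/f replicate 1 gave 0.31, and leaving out Chd7f/f replicate 2 gave -0.0009.

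The genes of other signals that raise metallothioneins were described in the same way. Of 12 tested NRF2 oxidative stress genes 2, Osgin1 and the glutathione reductase gene Gsr, were lowest on Chd7f/f replicate 2, and the median was -0.19. Osgin1 lay 0.93 and the quinone reductase gene Nqo1 0.56 below the other arrays, while Nfe2l2, which encodes NRF2, lay 0.35 and the thioredoxin gene Txn1 0.24 above. Without Chd7f/f replicate 1 the values were 0.59 below for Osgin1 and 0.13 above for Txn1. Of 10 tested glucocorticoid response genes 5 were lowest there, beside 17.8% of all genes, with a median of -0.26. The list mean was 9.04, 8.31 and 8.44 in Chd7f/f and 8.41, 8.61 and 8.37 in control leukemias, with Chd7f/f replicate 1 well above the rest. Fkbp5, a cochaperone of the glucocorticoid receptor, was at 9.24, 7.80 and 8.20 in Chd7f/f and at 8.24, 8.36 and 8.01 in control leukemias, 0.60 below the other arrays on the low one. Ddit4 lay 0.59 below, while Klf9 lay 0.40 and Sgk1 0.10 above. The 5 genes were Nr3c1, which encodes the glucocorticoid receptor, Fkbp5, Tsc22d3, Ddit4 and Zbtb16. Nr3c1 was lowest by little, at 9.15 against 9.18 in control replicate 3, and so was Zbtb16, at 4.68 against 4.76 in Chd7f/f replicate 3. Apart from 5.46 in Chd7f/f replicate 1, Zbtb16 lay near the array medians, where levels may be background. The spread of the same genes over the other 5 arrays was 0.48 for Fkbp5, 0.38 for Ddit4 and 0.65 for Klf9 (SD, n = 5). Without Chd7f/f replicate 1 Fkbp5 was 0.40 below and Klf9 0.63 above, and without control replicate 1 Sgk1 was 0.049 below. Between genotypes 0 genes of these lists passed the test, with median differences of -0.038 for the oxidative stress and 0.12 for the glucocorticoid genes. For the oxidative stress genes leaving out control replicate 3 gave 0.0030, and leaving out Chd7f/f replicate 3 gave -0.14. The glucocorticoid median turned to -0.16 when Chd7f/f replicate 1 was left out, and was 0.28 when Chd7f/f replicate 2 was.

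Of 10 tested IL-6 and STAT3 response genes 2 (Junb and Cebpd) were lowest and 2 (Il6st and Osmr) highest on Chd7f/f replicate 2. Over all tested genes 17.8% were lowest and 17.6% highest there. The list median relative to the other arrays was -0.064. Cebpd and Osmr lay under the median of every array, where levels may be background. The activator protein gene Junb lay 0.49 and Cebpd, an acute-phase transcription factor gene, 0.46 below the other arrays. Il6st, which encodes the shared receptor chain gp130, was at 5.77, 9.85 and 7.32 in Chd7f/f and at 5.06, 9.13 and 6.94 in control leukemias. It was highest on the array with low Mt1 and Mt2, 3.01 above the mean of the others, and nearly as high in control replicate 2, where Mt1 and Mt2 were not low. Bcl3 lay 0.53 above the other arrays, and 0.30 above without control replicate 1. Between genotypes 0 of the 10 passed the adjusted threshold, and 1, the kinase gene Pim1, had an unadjusted limma p under 0.05 (0.0157, difference -0.34, SE 0.10, adjusted p = 0.9998).

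Most heat shock genes tested, a class that toxic metals also induce, were highest on the array with low Mt1 and Mt2. Of 7 tested genes 0 were lowest and 5 (Hspa1a, Hspa1b, Hsph1, Dnajb1 and Hsp90aa1) were highest on Chd7f/f replicate 2, beside 17.6% of all genes. Hsp90aa1 was highest by little, at 8.69 against 8.65 in Chd7f/f replicate 3. Hspa1b, an inducible HSP70 gene, was at 4.15, 11.62 and 9.73 in Chd7f/f and at 4.62, 8.47 and 8.01 in control leukemias. Hspa1a was at 5.91, 11.34 and 9.49 in Chd7f/f and at 5.18, 8.14 and 6.80 in control leukemias. Both were also high in Chd7f/f replicate 3, and higher in control replicate 2 than in the other controls, arrays on which Mt1 and Mt2 were not low. On Chd7f/f replicate 2 Hspa1b and Hspa1a were 4.63 and 4.23 above the mean of the other 5 arrays. Without both arrays numbered 1 they were 2.89 and 3.19 above the mean of the 3 others left. The genes are near-identical copies, so their probe sets may share signal. Hspa8, the constitutive HSP70 gene, was even, 0.039 above the others, and Hspb1 was 0.33 below. Between genotypes the groups overlap for Hspa1a and Hspa1b, and neither passed the test (limma, differences 2.21 and 1.47, SE 1.45 and 2.05, adjusted p = 0.9998 for each).

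The genes around the cluster on chromosome 8 were read for the same array. Of the 5 nearest measured protein-coding genes on each side, 9 of 10 were tested, all but Ces5a. Of the 9, 3 (Gnao1, Bbs2 and Cpne2) were lowest on Chd7f/f replicate 2, beside 17.8% of tested genes. Gnao1 was lowest by little, at 4.54 against 4.59 in control replicate 1. It lay under the median of each array, where levels may be background. Nup93, a nuclear pore gene 34.2 kb beyond the cluster on the side of Mt1, was 0.37 above the mean of the other arrays, and 0.087 above without Chd7f/f replicate 1. Bbs2, a cilium gene 37.8 kb away on the side of Mt4, was at 7.04, 6.04 and 6.50 in Chd7f/f and at 6.81, 6.45 and 6.56 in control leukemias, 0.63 below. Cpne2, a copine gene 352.3 kb away, was at 10.22, 7.76 and 9.55 in Chd7f/f and at 11.96, 9.28 and 10.87 in control leukemias. It was 2.61 below the mean of the other 5 arrays, which themselves spread from 9.28 to 11.96. The 4 tested genes between Mt1 and Cpne2 were between 0.14 below and 0.37 above the others. Of these Slc12a3 and Nlrc5 lay near the array medians on all arrays, where levels may be background, and could hardly show a fall. Nup93 and Herpud1 were well above the medians and did not share the low levels of Mt1, Mt2 and Cpne2. Whether the low levels run through the rest of the interval was not tested. Mt3 and Mt4, within the cluster, were 0.24 below and 0.057 above.

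**Figure D4:**
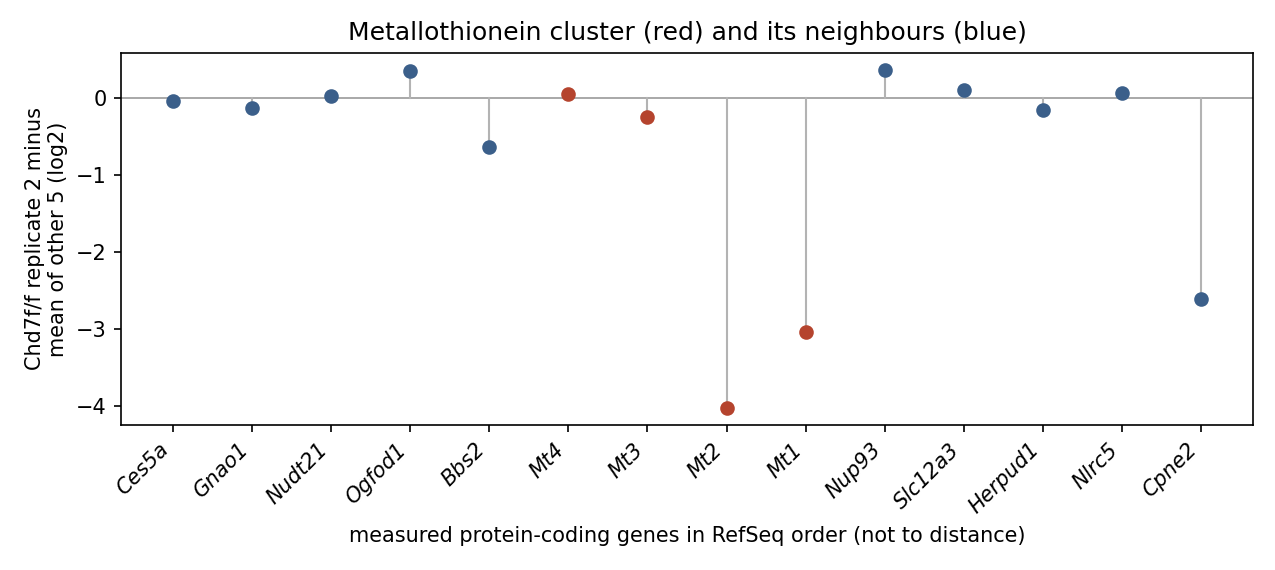
Level on Chd7f/f replicate 2 minus the mean of the other 5 arrays (log2) for the metallothionein genes (red) and the 5 nearest measured protein-coding genes on each side (blue), in RefSeq order and not to distance. Mt2 (-4.02), Mt1 (-3.03) and Cpne2 (-2.61) are low, and the genes between Mt1 and Cpne2 lie near 0.

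The genes whose pattern over the 6 arrays was most like that of Mt2 were found by the distance between levels centred on each gene's mean, where Mt2 itself lies 3.71 from a flat profile. Parvg, which encodes the leukocyte focal adhesion protein gamma-parvin, was nearest at 0.52. Its levels were 9.29, 5.74 and 9.44 in Chd7f/f and 10.14, 10.04 and 9.73 in control leukemias. Paqr4 came next at 0.84, then Mt1 at 0.96, the mitochondrial aldehyde dehydrogenase gene Aldh2 at 1.03 and the endocytosis gene Fcho1 at 1.34. All 5 were low on Chd7f/f replicate 2, by 3.03 to 3.99 relative to the others. The likeness rests on that array, and nothing is drawn from it on shared function.

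For Mt1, which lies 2.79 from a flat profile, the nearest were the myosin gene Myo5a (0.73), Aldh2 (0.80), the heparan sulfate polymerase gene Ext2 (0.80), Rgs12 (0.94) and Irak3 (0.95), an inhibitor of Toll-like receptor signalling. Mt2 was at place 6 from Mt1 and Mt1 at place 3 from Mt2 among all tested genes, predicted genes included. Aldh2 was at 12.36, 8.47 and 12.09 in Chd7f/f and at 11.56, 11.93 and 12.11 in control leukemias. Irak3 was at 9.72, 6.75 and 8.98 in Chd7f/f and at 8.60, 9.19 and 9.34 in control leukemias.

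**Figure D5:**
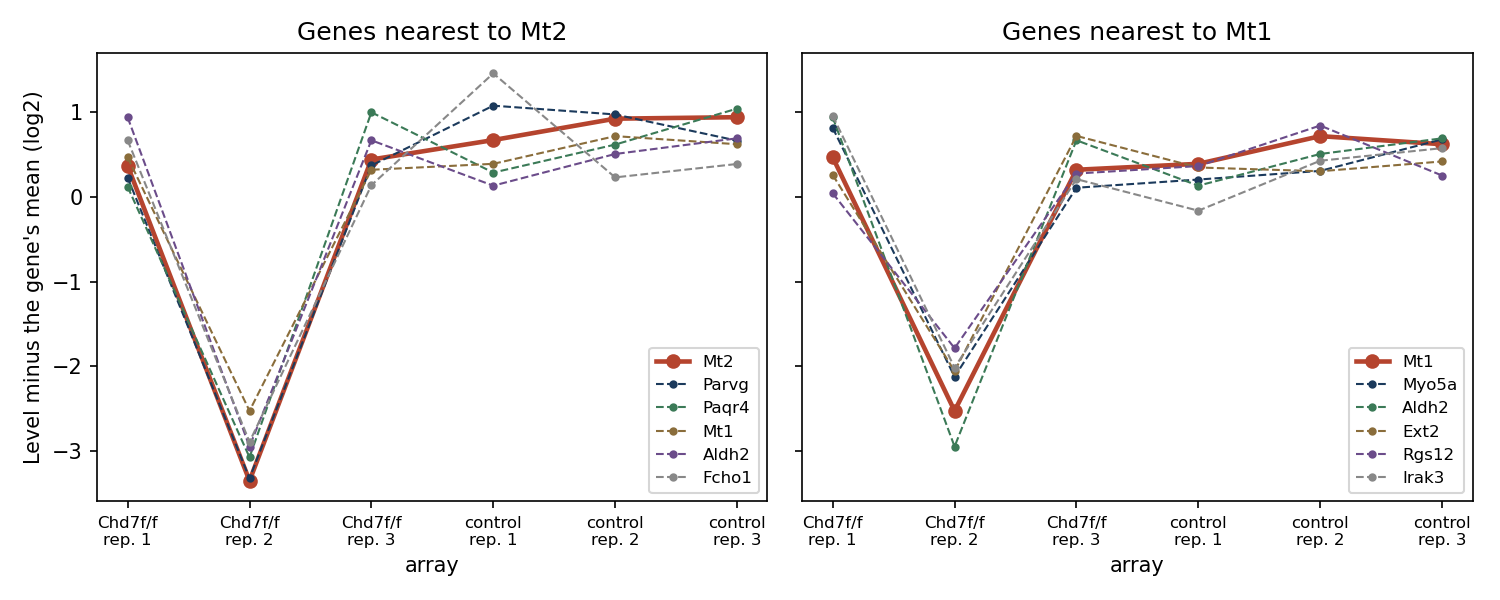
Levels minus each gene's mean over the 6 arrays (log2) for Mt2 (left) and Mt1 (right) in solid red, with the 5 genes nearest to each in dashed lines that join the arrays of 1 gene. All drop on Chd7f/f replicate 2, Mt2 to 3.35 and Mt1 to 2.53 below its own mean.

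Markers of cell types were read on the same arrays. Macrophage markers had a mean level of 6.96, 6.23 and 7.12 in Chd7f/f and 6.47, 6.86 and 5.92 in control leukemias, with 1 of 8, C1qc, lowest on Chd7f/f replicate 2. Leukemic progenitor markers were at 7.90, 6.88 and 7.45 in Chd7f/f and at 7.51, 7.14 and 6.67 in control leukemias, with 2 of 9, Cd34 and Flt3, lowest there. All 8 macrophage and 7 of the 9 progenitor markers lay below the mean of the other arrays, beside 50.1% of all tested genes. The 5 tested mast cell and basophil markers were at 10.88, 10.68 and 10.68 in Chd7f/f and at 9.84, 10.59 and 10.67 in control leukemias, and the mast cell protease gene Cpa3 was between 12.92 and 13.09 on all arrays. Of the 10 marker lists 3 had their lowest mean level on Chd7f/f replicate 2. The 3 tested platelet and megakaryocyte markers were at 8.11, 8.08 and 8.74 in Chd7f/f and at 8.69, 9.37 and 8.89 in control leukemias. Of these Gp9, a platelet glycoprotein gene, was 1.65 below the other arrays and lowest there, and 0.97 below without control replicate 1, while Pf4 was too low to test. The 3 tested B cell markers were at 4.94, 4.72 and 4.88 in Chd7f/f and at 5.03, 5.64 and 4.81 in control leukemias, with Cd79a and Cd79b lowest there. Without control replicate 2 the Cd79a difference was -0.20 in place of -0.60. The 3 tested T cell markers were at 4.39, 4.37 and 4.81 in Chd7f/f and at 4.57, 4.39 and 4.46 in control leukemias. The B and T cell means lie near or under the array medians in most leukemias, where levels may be background. The macrophage, progenitor, NK cell and stromal lists were lowest in control replicate 3, the mast cell and neutrophil lists in control replicate 1 and the erythroid list in Chd7f/f replicate 1, arrays on which Mt1 and Mt2 were not low. For T, B and NK cells 7 of the 17 listed markers were tested. The NK cell list rests on 1 tested gene, Nkg7, at 6.51 in control replicate 3 and 6.52 in control replicate 1. The part of any of these cell types in the low Mt1 and Mt2 was not tested.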

How the data were processed

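RNA of 6 samples, 3 per genotype, was measured on Affymetrix arrays, mouse Gene 2.0 ST per the series' design text; the labels' labelling protocol names a human design, while the annotation pairs these probe sets with mouse genes. The authors deposited log2 values per probe set and array. Affymetrix Expression Console and RMA (background correction, normalization between arrays, summary of probes) are named in the submitters' processing notes, with no settings given there. Differences in total signal between arrays are no longer visible after RMA, and without detection calls low levels may be background. The table holds 41345 probe sets, of which 23521 have 1 gene symbol in the platform's annotation, 1814 several and 16010 none listed. Entrez identifiers were used to update symbols to those of RefSeq (GRCm38.p6), where 21994 of the 22180 genes were found, and the highest-mean probe set was kept per gene.

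Genes whose mean reached the 30th percentile (4.13), 15526 in all, were tested with limma 3.58.1 in R 4.3.3 (lmFit, eBayes, Benjamini-Hochberg over these genes), without covariates. The steps were checked on simulated data. The samples are called independent in the series' text, which does not state whether each came from its own mouse, so a p-value speaks only of the spread among these samples, and precision is limited by how few arrays there are. Members and lists (8 pathway and 10 marker lists) were chosen with earlier results of these data known. Named were the listed genes, Mt4, Chd7 and Kit; per pathway list the 2 lowest and 2 highest genes on the array with the lowest Mt2; the 5 genes nearest to Mt2 and to Mt1; and the cluster's neighbours. Eif2s3y, Cpa3, Pf4, Selenow, Csrp1 and the genes behind counts of 5 or fewer were named after their values were seen. Promoters are from RefSeq (GRCm38.p6), which held all 6 genes looked up. Alternatives were other normalizations, filters, probe set rules, priors, array weights, a replicate block and leaving out each array. The main fit did not pair arrays by replicate number, and a pairing by number was not excluded. Plots were drawn with matplotlib 3.10.9.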

Additional observations from a re-analysis of the deposited data

How the results depend on the processing

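Mt1 stayed lower in Chd7f/f leukemias under the 14 alternatives, without passing the test in any, at -1.18 to -0.94 and, without each array in turn, at -1.68 to -0.18. Mt2 ran from -1.72 to -1.35 and, without each array in turn, from -2.34 to -0.44. The values nearest 0 are those without Chd7f/f replicate 2. Mtf1 was 0.058 to 0.18 higher, and 0.092 to 0.17 higher without each array in turn. Mt3 was at -0.19 to -0.056, and -0.24 to 0.0052 without each array in turn, the positive value being that without control replicate 3. Mt3 is below the filter at the 50th percentile. Chd7 was at -0.89 to 0.22 without each array in turn, the positive value being that without control replicate 2. On Chd7f/f replicate 2 the difference from the other arrays was -3.11 to -3.03 for Mt1 and -4.10 to -4.02 for Mt2 under other scalings, filters and probe set rules, and -3.08 and -4.12 without both arrays numbered 1, a setting chosen after seeing the data. Mtf1 was 0.058 above the others with quantile normalization. Without each array in turn the median between genotypes was -0.0009 to 0.31 for copper handling, -0.024 to 0.14 for zinc exporter, -0.12 to 0.039 for zinc importer, -0.38 to -0.11 for other MTF-1 target, -0.14 to 0.0030 for oxidative stress, -0.16 to 0.28 for glucocorticoid, -0.13 to 0.064 for IL-6 and STAT3 and -0.092 to 0.29 for heat shock genes. On Chd7f/f replicate 2, without each other array in turn, also chosen after seeing the data, Mt1 was at -3.08 to -2.98 and Mt2 at -4.10 to -3.95. The replicate block left 0 genes called and Mt1 at -1.16 (limma, adjusted p = 0.9996). The correlations of deviations of same-numbered arrays were 0.027, -0.025 and 0.034. They speak of all tested genes together and cannot exclude an effect by number on some genes. Il6st, Hspa1a and Hspa1b were lowest on replicate 1 and highest on replicate 2 of both genotypes, and Mt1 and Mt2 were not. In all alternatives 0 genes passed the adjusted threshold. The count at an unadjusted p under 0.05, 286, was 530 without a filter, 159 with the stricter one, 571 with array weights and 477 without control replicate 2. The cause of these changes was not tested.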

Other observations

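Chd7f/f replicate 2 was not the only array with genes far from the rest. Counts of genes at least 2 below the mean of the other 5 arrays were 89, 80 and 3 in Chd7f/f replicates 1, 2 and 3 and 95, 4 and 19 in control replicates 1, 2 and 3. On Chd7f/f replicate 2 the 3 genes that lay further below than Mt2 were Cyfip2, a subunit of the WAVE actin regulator, at -4.47, the receptor family gene Paqr9 at -4.25 and the lysophospholipid acyltransferase gene Lpcat2 at -4.22. The next after Mt2 were Parvg at -3.99 and the surface glycoprotein gene Cd24a at -3.88. These genes were chosen for their size after the values were seen, and rest on 1 array with no replicate.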
